A study of Mus musculus with 6 samples.

Results

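A set of 8 genes of the MHC class II antigen presentation pathway, chosen by their known role in the pathway with no measured value in the rule, were followed in mouse hearts after myocardial infarction (MI). The 8 members were H2-Aa, H2-Ab1, H2-Eb1, Cd74, Ciita, H2-DMa, H2-DMb1 and H2-Oa, out of 26012 genes in the deposited table. RNA was sequenced from ventricular tissue of 6 hearts of male C57BL/6 mice aged 8 weeks, all of which had MI by ligation of the left anterior descending artery. Into the heart muscle, 3 mice received a control mimic, a synthetic small RNA used as the reference, and 3 received mimics of miR-19a and miR-19b, at 10 μg per heart, and all hearts were taken on day 4. Each heart was 1 library and 1 replicate. Both miRNAs were given to the same hearts, so their parts in any difference cannot be told apart. The comparison asks which genes differ in level when miR-19a/19b are raised in the infarcted heart.

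MHC class II molecules carry peptides of engulfed proteins to the surface of dendritic cells, macrophages and B cells, where CD4+ T cells read them. An α and a β chain assemble in the endoplasmic reticulum with the invariant chain, which is cut down in endosomes until a short fragment is left in the groove, and the H2-DM heterodimer then exchanges that fragment for peptide. Transcription of the pathway depends on the coactivator CIITA, which is induced by interferon gamma and held at the promoters by RFX, CREB and NF-Y on neighbouring short boxes. Infarcted hearts fill with monocytes, macrophages and dendritic cells in the days after the injury, and these cells bring class II transcripts with them.

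The mature forms of the injected miRNAs are printed because their seed, bases 2 to 8 and here in capitals, is what a direct target would pair with. Both sequences are from RefSeq on GRCm38.p6, at chr14:115044048-115044070 for mmu-miR-19a-3p and chr14:115044358-115044380 for the Mir19b-1 copy of mmu-miR-19b-3p, on the plus strand, and the mature miR-19b-3p of the Mir19b-2 copy at chrX:52741991-52742013 has the same letters.
mmu-miR-19a-3p: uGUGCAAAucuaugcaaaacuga
mmu-miR-19b-3p: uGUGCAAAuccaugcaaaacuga
The mature sequences differ by 1 base, U11C from miR-19a-3p to miR-19b-3p with positions counted from the 5′ end, and share the seed. Matches to the seed in a 3′ UTR were taken as the 8-mer TTTGCACA or either of the 7-mers TTTGCAC and TTGCACA inside it, on the transcript strand. Of the 8 members, 0 had a match in their longest annotated 3′ UTR, which ran from 228 bases in H2-Oa to 2676 bases in Ciita. Among the 15858 tested genes with an annotated 3′ UTR, 19.3% had at least 1 match. The lack of a match says only that these letters were not in that window.

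Class II promoters are known for an X box followed by a Y box, the latter an inverted CCAAT that NF-Y binds, and the letters before the start site are shown for the 4 members that held the Y box TGATTGG. Each is the 100 bases before the RefSeq start on GRCm38.p6, read on the gene's own strand, at chr17:34287824-34287923 (minus strand) for H2-Aa, chr17:34305767-34305866 (plus) for H2-Eb1, chr17:34153091-34153190 (plus) for H2-DMb1 and chr17:34092279-34092378 (plus) for H2-Oa. Capitals mark matches to the Y box, to its core CCAAT, to the X box end AACNGATG and to the CREB palindrome TGACGTCA. Each was searched on both strands, and TGATTGG overlaps with CCAAT in that it holds its reverse complement.
H2-Aa: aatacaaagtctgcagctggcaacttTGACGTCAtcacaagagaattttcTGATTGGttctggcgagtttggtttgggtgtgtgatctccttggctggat
H2-Eb1: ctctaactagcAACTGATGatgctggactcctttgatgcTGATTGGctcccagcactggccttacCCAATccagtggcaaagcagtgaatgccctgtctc
H2-DMb1: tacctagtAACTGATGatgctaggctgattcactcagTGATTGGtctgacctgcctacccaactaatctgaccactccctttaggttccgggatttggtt
H2-Oa: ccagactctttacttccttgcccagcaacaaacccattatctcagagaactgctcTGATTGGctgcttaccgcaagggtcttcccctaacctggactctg
TGATTGG lay on the gene's strand in all 4, with its first base at -50 from the start in H2-Aa, -61 in H2-Eb1, -63 in H2-DMb1 and -45 in H2-Oa. Windows of 300 bases, 250 before and 50 after the start, were listed for 5 of the 8 members, with 2 windows for H2-DMa. TGATTGG was in 4 of these 6 windows and in neither H2-DMa window. The H2-DMa windows lay at chr17:34122582-34122881 and chr17:34125268-34125567, well upstream of the start of the counted gene at 34135182. The letters next to that start were not searched. It was in 7.82% of all 32851 windows of that length. AACNGATG, the end of an X box, was in H2-Eb1 and H2-DMb1, and was in 2.32% of all windows. TGACGTCA, the palindrome that CREB binds, was in H2-Aa at -74 and in 1.79% of all windows. CCAAT was in 5 of the 6 windows and in 37.4% of all windows. The 3 longer motifs were chosen after the letters of these promoters had been seen, and a match is a description of the letters and not of a bound site.

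All 8 members were lower in the hearts given miR-19a/19b mimics than in the control hearts, by a median log2 fold change of -0.51, while the median of the 21126 genes tested was 0.0041. The 8 members summed to 18272, 20202 and 17390 normalized counts in control hearts 1 to 3, and to 12127, 12255 and 15224 in miR-19 hearts 1 to 3. The normalized count is a gene's read number after division by the size factor for that heart. Every miR-19 heart thus lay below every control heart, and the mean of the miR-19 sums was 70.9% of the control mean. With limma, 8 of 8 members had an unadjusted p under 0.05 and a lower level, against a background of 2.63% of all genes tested. In 7 of 8 the values of both groups did not overlap with the miR-19 hearts below, against 5.3% of all genes tested. After Benjamini-Hochberg adjustment over all genes tested, 0 of 8 members had an adjusted p under 0.05 in limma, as had 0% of all genes (848 of 21126 at an unadjusted p under 0.05). With all 6 hearts, edgeR and limma-voom also called 0 members and 0 genes after adjustment, and DESeq2 called 0 members and 29 genes. Since the members were picked with earlier results of these hearts known, their count is a description. Less class II RNA per cell and fewer class II cells cannot be told apart in bulk tissue.

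**Figure D1:**
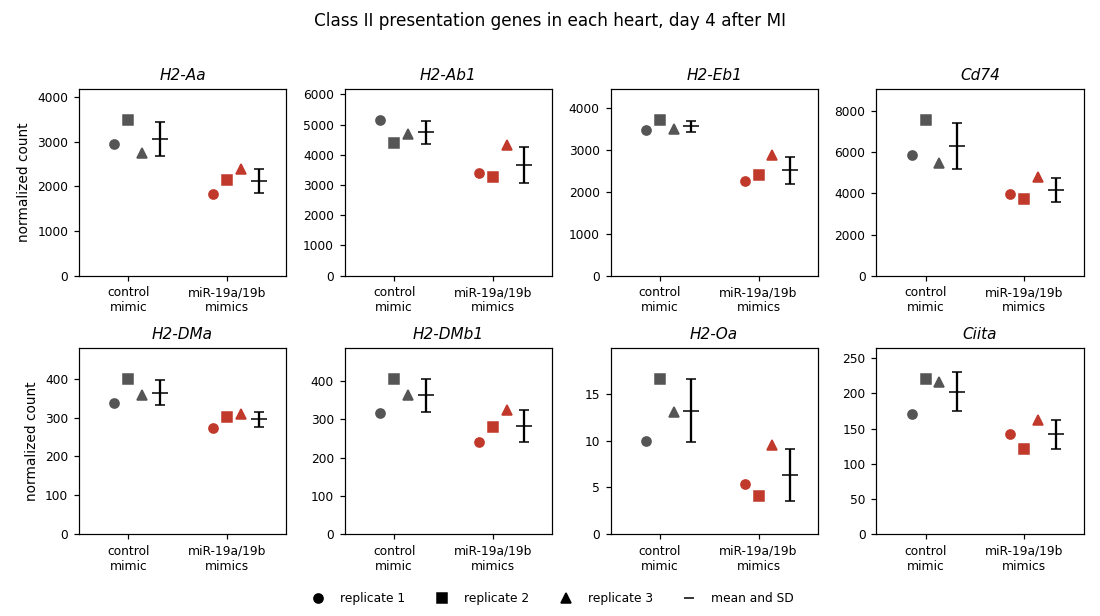
Normalized count (vertical axes, from 0) of each of the 8 members in the 3 hearts given control mimic (grey) and the 3 given miR-19a/19b mimics (red), with marker shape for the replicate and bars for the mean and SD. Control and miR-19 hearts are apart in every gene but H2-DMb1, where miR-19 replicate 3 at 325 lies above control replicate 1 at 317, and that miR-19 heart is the highest of its group in all 8 genes.

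Positions of the members are printed as the deposited table lists them and overlap the same genes on GRCm38. The listed starts of H2-Ab1, Ciita and H2-DMa lay 5520, 8119 and 15641 bases after those of the annotated genes. The other ends differed less. H2-Aa encodes the α chain of the I-A molecule and is annotated on the minus strand at chr17:34282744-34287827. It had 2957, 3476 and 2742 normalized counts in control hearts 1 to 3 and 1830, 2137 and 2377 in miR-19 hearts 1 to 3. All control hearts stood above all miR-19 hearts, and the lowest control value was 1.15 times the highest miR-19 value. The means were 3058 ± 378 and 2115 ± 274 (SD, n = 3 hearts per group), a log2 fold change of -0.53 with an SE of 0.13 (limma, unadjusted p = 0.00336, adjusted p = 0.877).

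H2-Ab1, the β chain that pairs with H2-Aa, is annotated at chr17:34263209-34269418 on the plus strand. It had 5145, 4406 and 4680 normalized counts in control hearts 1 to 3 and 3384, 3278 and 4341 in miR-19 hearts 1 to 3. The groups only just stood apart, since miR-19 heart 3 reached 91.5% of the control mean while the other miR-19 hearts were at 71.3% and 69.1%. The log2 fold change was -0.38 with an SE of 0.14 (limma, unadjusted p = 0.0209, adjusted p = 1.0). H2-Ab1 was the only member for which control heart 2 was the lowest control and not the highest.

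H2-Eb1 encodes the β chain of the I-E molecule and is annotated at chr17:34305877-34316199 on the plus strand. It had 3475, 3715 and 3516 normalized counts in control hearts 1 to 3, and 2274, 2400 and 2883 in miR-19 hearts 1 to 3. The controls were close together, with an SD of 3.6% of their mean, and the lowest of them was 1.21 times the highest miR-19 heart. Its log2 fold change was -0.51 with an SE of 0.12 (limma, unadjusted p = 0.00184, adjusted p = 0.806), the smallest p of the 8 members and rank 46 among the 21126 genes tested. C57BL/6 mice are known to lack a working gene for the I-E α chain, H2-Ea, and H2-Ea and H2-Ea-ps were not analysed here. Gm20513, which overlaps H2-Eb1 on the other strand, was not analysed here.

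Cd74 encodes the invariant chain, which keeps the peptide groove shut until the molecule reaches the endosome. It is annotated on chromosome 18 from 60803848 to 60812646. It had 5861, 7562 and 5502 normalized counts in control hearts 1 to 3 and 3977, 3733 and 4817 in miR-19 hearts 1 to 3. Control heart 2 stood above the other controls, and all control hearts stood above all miR-19 hearts. The log2 fold change was -0.59 with an SE of 0.16 (limma, unadjusted p = 0.00433, adjusted p = 0.914), from means of 6308 ± 1101 and 4175 ± 568 (SD, n = 3 hearts per group).

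The fold changes of the 2 H2-DM genes were the smallest in size, but that of H2-DMb1 was close to that of H2-Ab1 at -0.38. No test between genes was made. H2-DMa, one chain of the H2-DM exchanger, is annotated at chr17:34135182-34139101, and had 336, 399 and 357 normalized counts in control hearts 1 to 3 and 273, 302 and 309 in miR-19 hearts 1 to 3. The groups did not overlap, and the log2 fold change was -0.30 with an SE of 0.12 (limma, unadjusted p = 0.0324, adjusted p = 1.0), the smallest in size of the 8 members. H2-DMb1, the other chain, is annotated at chr17:34153072-34160230, and had 317, 405 and 363 normalized counts in control hearts 1 to 3 and 241, 279 and 325 in miR-19 hearts 1 to 3. Here miR-19 heart 3 lay inside the control range, and the log2 fold change was -0.36 with an SE of 0.15 (limma, unadjusted p = 0.0377, adjusted p = 1.0). H2-DMb1 aligned with its neighbour H2-DMb2 over 1081 bases at 95.7% identity, so reads could be split between them and its level is uncertain. An annotated H2-DMa transcript aligned with its neighbour Brd2 over 325 bases at 99.1% identity. Brd2 had more reads than H2-DMa in every heart, between 4369 and 4704 normalized counts. The annotated transcripts begin at 34119541, before the counted gene, and whether the 325 bases lie in the counted gene was not checked. The level of H2-DMa may therefore be uncertain too.

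H2-Oa encodes a chain of H2-DO (H2-O), which holds H2-DM back, and is known mostly from B cells and some dendritic cells. It is annotated at chr17:34092340-34095234. Its reads were few, 9, 17 and 14 in control hearts 1 to 3 and 5, 4 and 11 in miR-19 hearts 1 to 3, which are normalized counts of 9.95, 16.6 and 13.1 against 5.38, 4.12 and 9.51. The groups did not overlap, but the lowest control was only 1.05 times the highest miR-19 heart. The log2 fold change on the log2(normalized count + 1) scale was -0.99, the largest in size of the 8, and its SE of 0.41 was also the largest (limma, unadjusted p = 0.0370, adjusted p = 1.0).

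Ciita encodes the class II coactivator and is annotated at chr16:10488178-10527564. It had 171, 221 and 216 normalized counts in control hearts 1 to 3 and 142, 121 and 163 in miR-19 hearts 1 to 3. The miR-19 hearts lay below the controls, with miR-19 heart 3 again nearest to them. Its log2 fold change of -0.51 with an SE of 0.17 (limma, unadjusted p = 0.0133, adjusted p = 1.0) was of the same size as the median of the 8 members. Some members share their place with another gene, and the library kit named in the methods does not mark strand. Dexi, which overlaps Ciita on the other strand, had between 563 and 715 normalized counts, more than Ciita in every heart, so reads of this pair cannot be fully told apart. BC051537, which overlaps H2-Oa, had 0 in 5 hearts and 0.864 in miR-19 heart 3.

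Divided by gene length, the members covered a wide range of levels. In control hearts Cd74 was at 4474 normalized counts per kilobase, H2-Eb1 at 3014, H2-Ab1 at 2898 and H2-Aa at 1632. The peptide loading genes followed at 244 for H2-DMb1 and 222 for H2-DMa, and then came Ciita at 38.6 and H2-Oa at 10.1. H2-Eb1 and H2-Ab1 were neighbours whose values crossed between hearts in order. H2-DMb1 was above H2-DMa per length in 5 of 6 hearts, by at most 1.16 times.

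Ratios between members, per length, show whether the members kept their proportions. Cd74 over H2-Aa was 2.63, 2.89 and 2.67 in control hearts 1 to 3 and 2.89, 2.32 and 2.69 in miR-19 hearts 1 to 3, so the groups overlapped. H2-Eb1 over H2-Aa was 1.86 ± 0.169 in control and 1.89 ± 0.0986 in miR-19 hearts (SD, n = 3 hearts per group), and also overlapped. H2-DMa over H2-Aa was 0.137 ± 0.0105 in control and 0.16 ± 0.011 in miR-19 hearts, with the highest control at 0.1486 and the lowest miR-19 heart at 0.1487, so the values met without overlapping. Across the 6 hearts the 28 pairs of members had Pearson's r from 0.67 to 0.98 on the log2 scale, with a median of 0.90, as a description over hearts that fall into 2 groups and share the same libraries.

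Leaving out each heart in turn kept all 8 members lower in every fit. H2-Aa, H2-Eb1 and Cd74 had an unadjusted p under 0.05 in limma whichever heart was left out, with their largest p at 0.0165, 0.01 and 0.0224. The other 5 lost that threshold in 3 or 4 of the 6 fits each. The number of members under it was 7 without control heart 1, against 2.08% of all genes lower at that threshold in the same fit. It was 4 without control heart 2 (1.76% of all genes), 3 without control heart 3 (2.07%), 4 without miR-19 heart 1 (2.47%) and 3 without miR-19 heart 2 (1.96%). It was 8 without miR-19 heart 3, a fit in which 6.12% of all genes were lower at that threshold and 3070 of 21126 passed it in either direction. Without miR-19 heart 3, 4 of 8 members had an adjusted p under 0.05 and a lower level, against 0.729% of all genes, namely H2-Eb1 (limma, adjusted p = 0.0103), H2-Aa and Cd74 (both 0.0251) and H2-Ab1 (0.0270). That fit rests on 2 miR-19 hearts, and 515 of the 21126 genes were called in it in either direction. These 2 hearts also lay outside the control range in their cardiomyocyte and macrophage marker sums and mitochondrial reads, with values given below. The part of these differences in the calls was not tested.

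**Figure D2:**
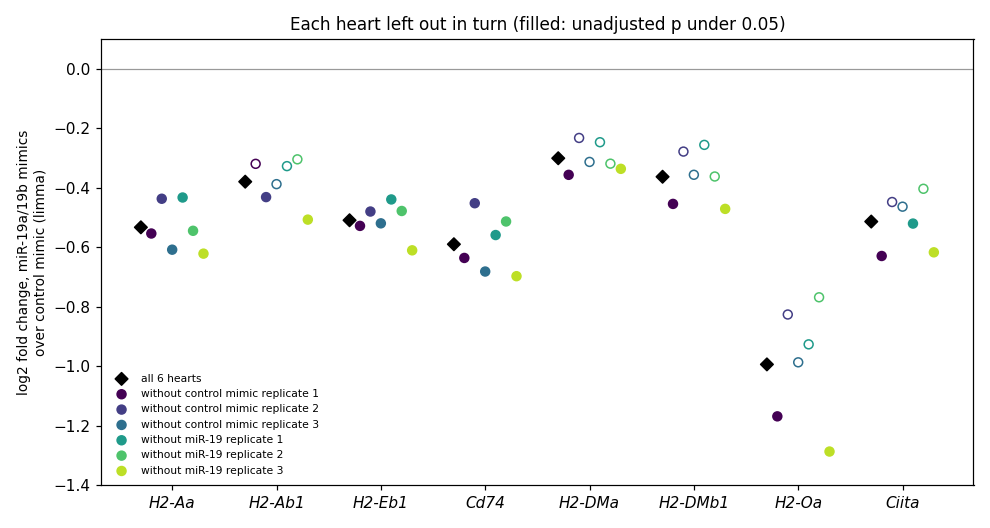
Log2 fold change of each member (vertical axis, limma) with all 6 hearts (black diamonds) and with each heart left out in turn (circles), filled where the unadjusted p was under 0.05. All points lie below 0, and the fit without miR-19 replicate 3 is the lowest point for all members but H2-DMa and Ciita.

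The other genes of the class II pathway were counted from lists of their own. Of 41 such genes reported here, 2 were lower and 0 higher at an unadjusted p under 0.05 in limma (Ctss and Cd274), 0 had an adjusted p under 0.05, and their median log2 fold change was -0.02. Of 5 class II genes that are not members, 3 were found and tested, and 0 of these passed. H2-Ob, the partner chain of H2-Oa, had 60.8, 68.3 and 64.5 normalized counts in control hearts 1 to 3 and 43.0, 44.3 and 55.3 in miR-19 hearts 1 to 3, which did not overlap, with a log2 fold change of -0.44 (limma, unadjusted p = 0.0508, adjusted p = 1.0). H2-DMb2 had a log2 fold change of -0.08 and H2-Eb2 of 0.14.

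Of the 12 genes of endosomal processing and class II turnover, 1 was lower at an unadjusted p under 0.05. Ctss, the protease cathepsin S that trims the invariant chain, had 14333, 18544 and 16110 normalized counts in control hearts 1 to 3 and 9995, 11219 and 15355 in miR-19 hearts 1 to 3. Its groups overlapped through miR-19 heart 3, and the log2 fold change was -0.44 with an SE of 0.19 (limma, unadjusted p = 0.0470, adjusted p = 1.0). The lysosomal proteases and membrane protein of highest level had log2 fold changes of -0.01 (Ctsb), 0.00 (Ctsd), -0.11 (Lgmn) and -0.12 (Lamp1), and none of these passed. Marchf1, the ligase that takes class II off the surface, had a log2 fold change of -0.33 (limma, unadjusted p = 0.0845).

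None of the 9 genes for the promoter factors of RFX, NF-Y and CREB and for the acetyltransferases that work with CIITA had an unadjusted p under 0.05 in limma, and their median log2 fold change was -0.02. Rfx5, the subunit of RFX that gives the complex its name, had a log2 fold change of -0.04, with 263, 240 and 215 normalized counts in control hearts 1 to 3 and 241, 214 and 239 in miR-19 hearts 1 to 3. Creb1 was at 0.00, Nfya of the NF-Y complex at -0.02, and the acetyltransferases Ep300 and Crebbp at -0.12 and 0.14. These values overlapped between the groups, unlike those of Ciita.

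Of the 8 genes of the interferon gamma input to Ciita that are reported here, 0 had an unadjusted p under 0.05 in limma, and their median log2 fold change was -0.10. Ifng itself was near the limit of detection, with means of 1.33 ± 0.545 and 1.62 ± 0.502 normalized counts (SD, n = 3 hearts per group). The receptor chain Ifngr1 and the kinases Jak1 and Jak2 had log2 fold changes of -0.21, -0.07 and -0.15 with values that did not overlap but did not pass the test, Ifngr2 had 0.03, and Irf1, an interferon-induced factor that acts on a Ciita promoter, had -0.13 with overlapping values.

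Among the 9 partners of class II and costimulators, Cd274, the gene for the inhibitory ligand PD-L1, had 380, 332 and 244 normalized counts in control hearts 1 to 3 and 132, 226 and 221 in miR-19 hearts 1 to 3. Its groups did not overlap, with a log2 fold change of -0.74 and an SE of 0.24 (limma, unadjusted p = 0.0130, adjusted p = 1.0). Mif and Cd44, the ligand and co-receptor of CD74, had log2 fold changes of 0.09 and 0.01, and Icosl had -0.03. Cd4, the co-receptor that binds class II, had a log2 fold change of -0.38 (limma, unadjusted p = 0.169) with overlapping values.

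**Figure D3:**
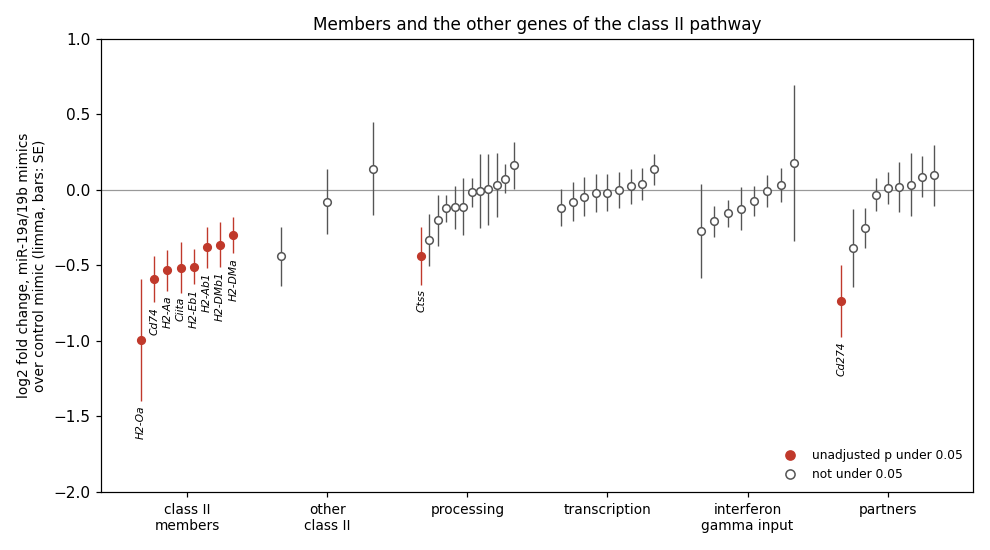
Log2 fold change of miR-19a/19b mimics over control mimic (vertical axis, limma, bars for the SE) for the 8 members and the 41 genes of 5 lists of the same pathway, red where the unadjusted p was under 0.05. The 8 members lie between -0.99 and -0.30, while the 9 transcription genes lie between -0.12 and 0.14. Of the other lists, Cd274 (-0.74), H2-Ob (-0.44), Ctss (-0.44), Cd4 (-0.38) and Marchf1 (-0.33) lie within the members' range, and the rest of the 41 genes lie above it.

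Markers of the immune cells that carry class II were read beside the members. Of 12 dendritic cell markers, 5 were lower at an unadjusted p under 0.05 in limma (Flt3, Xcr1, Cd209a, Ccr7 and Cd83) and 0 were higher, and their summed normalized count ran from 3056 to 3560 in control and from 2620 to 3592 in miR-19 hearts. Of 8 monocyte markers, 4 were lower (Ly6c2, Ccr2, Plac8 and Spn), with sums of 93111 to 134902 and 73868 to 116848. Fn1, a matrix gene, made up 94.3% of that sum, and the other 7 monocyte markers summed to 6378 to 7595 in control and 4234 to 5410 in miR-19 hearts, which did not overlap. Of 10 macrophage markers, 0 were lower and 1, Cd163, was higher, with sums of 87250 to 101895 and 71856 to 109012. Of 10 B cell markers, 0 passed in either direction, with sums of 804 to 871 and 662 to 820. Of 9 T cell markers, 2 were lower (Lck and Cd8a), with sums of 169 to 279 and 154 to 164, which did not overlap either. None of these markers was at 0 in all hearts. Their part in the members' difference was not tested.

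The largest single difference among these markers was in Ly6c2, which marks inflammatory monocytes, with a log2 fold change of -1.77, and Ccr2, the chemokine receptor of the same cells, had -0.53. The dendritic cell genes Flt3, a growth factor receptor, and Ccr7, the homing receptor of migrating cells, had -0.54 and -0.82. Zbtb46 and Clec9a, also dendritic cell genes, had 0.00 and 0.19, and Itgax had -0.16. Set against the macrophage marker sum of the same heart, the class II sum was 20.9%, 19.8% and 19.6% in control hearts 1 to 3 and 16.9%, 14.8% and 14% in miR-19 hearts 1 to 3. The miR-19 hearts again lay below the controls on this scale. Set against the dendritic cell marker sum, the groups were also apart, at 556 ± 21.6% and 441 ± 19.8% (SD, n = 3 hearts per group), as they were against the B cell marker sum. Irf8 made up 45.1% of the dendritic cell sum, Lyz2 42.0% of the macrophage sum and Ighm 42.5% of the B cell sum. No sum without these genes was taken. The 5 lower dendritic cell markers had control means of 20.1 (Xcr1) to 122 (Flt3), against 3353 for the whole sum, so they weigh little in that ratio. Against the 7 monocyte markers without Fn1, a sum chosen after the data were seen, the class II sum was 241%, 271% and 273% in control hearts 1 to 3 and 286%, 261% and 281% in miR-19 hearts 1 to 3. The groups overlapped on this scale. They also overlapped against the full monocyte sum, which is mostly Fn1, and against the T cell marker sum.

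**Figure D4:**
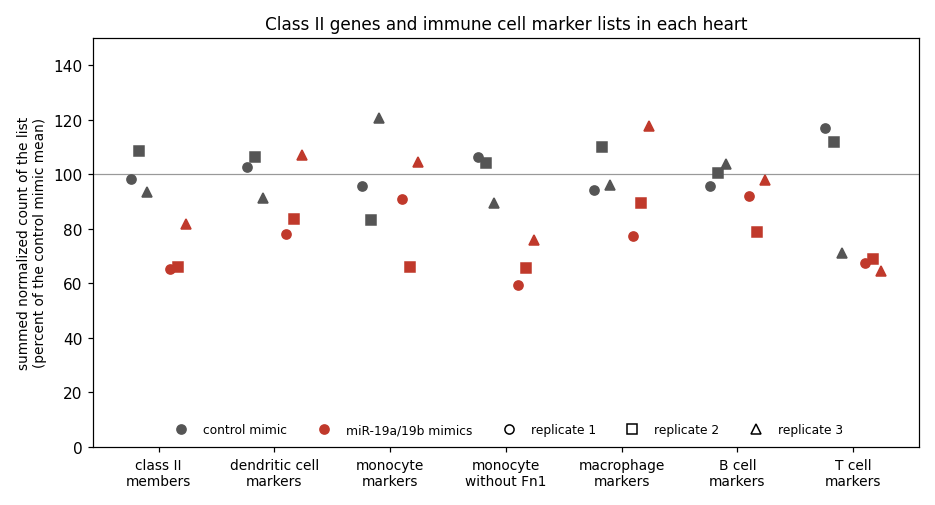
Summed normalized count of the 8 members and of 5 immune cell marker lists, the monocyte list also without Fn1, in each heart, as a percentage of the control mimic mean of the same list (vertical axis, from 0), grey for control and red for miR-19a/19b mimics, with marker shape for the replicate. The class II sums of the groups are apart, as are those of the T cell markers and of the monocyte markers without Fn1. The highest miR-19 heart is replicate 3 for the class II members and for every marker list except the T cell list.

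The miR-19 heart with the highest class II level, heart 3, also stood apart in other measures. Its summed cardiomyocyte markers were 307789 normalized counts, against 505290 to 658752 in control hearts. Those of miR-19 hearts 1 and 2 were 909637 and 810429. Of its reads on genes, 3.18% were mitochondrial, against 4.18% to 5.88% in control hearts and 6.86% and 6.93% in miR-19 hearts 1 and 2. Its macrophage marker sum of 109012 was the highest of all 6 hearts, while miR-19 hearts 1 and 2, at 71856 and 82848, lay below the controls at 87250 to 101895. In each of these measures miR-19 hearts 1 and 2 thus also lay outside the control range, on the other side from heart 3. The part of these differences in the members' values was not tested, and the values without this heart are given above. Depth was similar across hearts, between 19398196 and 23645308 reads on genes.

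The 10 genes whose pattern over the 6 hearts was most like the mean pattern of the members were found among 11602 genes with a mean of at least 100 normalized counts. They were Ggcx, Ppfia4, Lrrc32, Uhmk1, Gm1966, Tcea1, Lgals3bp, Znfx1, Gm6548 and Slfn8, with Pearson's r between 0.98 and 0.99 to the mean standardised log2 value of the 7 members above that level. Of all these genes, 1.84% had an r over 0.9. Slfn8, a gene of the Schlafen family, had means of 746 and 409 normalized counts in control and miR-19 hearts, and Lgals3bp, a secreted glycoprotein gene, had 8914 and 6231. The likeness includes the difference between the groups and is a description.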

How the data were processed

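RNA was sequenced from 6 mouse hearts, 3 per group. The authors removed adapter and low-quality reads, aligned the rest with STAR 2.5.1b and counted reads per gene with HTSeq 0.6.0. For the comparison of the groups the paper names edgeR, while the submitters' processing notes list DESeq2 1.10.1. The deposited signal is a normalized count per gene and heart, made by the authors by dividing counts by a size factor. Multiplied back, 100% of values in every heart were whole reads within 0.01. The deposited fold changes and p-values of the authors' comparison were not used.

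Genes had to reach a mean normalized count of 1, which 21126 of 26012 genes and all 8 members did. On log2 values with a pseudocount of 1, limma 3.58.1 (R 4.3.3, trend on) compared the groups, and p-values were adjusted over all genes tested by Benjamini-Hochberg. The alternatives were edgeR 4.0.16 and DESeq2 1.42.0 on recovered reads, limma-voom, other filters, a pseudocount of 0.1, a replicate block and each heart left out. Scripts were tested on simulated data. Members, lists and tests were chosen with earlier results of these data known. Named are all members, listed genes with an unadjusted p under 0.05, up to 4 others per list by level, Marchf1, Rfx5, Ifng, Irf1, Cd4 and the markers (chosen after their values were seen) and the 10 most alike genes. Replicate numbers were taken from the labels. Genes that a spreadsheet had turned into dates (Marchf1, Marchf8) were found by gene identifier. The notes list the build mm9, but 99.9% of the 25884 gene identifiers found in GENCODE M21 overlapped their GRCm38 position, so gene coordinates are given as listed and read as GRCm38. Promoters and miRNAs are from RefSeq GRCm38.p6, and 3′ UTRs are the longest per gene in GENCODE M21. Cd74, Ciita and H2-Ab1 had no promoter entry. Near copies were found with BLAST. No column of per-heart values was left out. An item of the interferon gamma list is not reported here and is in none of the list counts.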

Additional observations from a re-analysis of the deposited data

How the results depend on the processing

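With all 6 hearts, 8 alternative settings gave 63 fold changes of members, of which 63 kept the lower level and 59 kept an unadjusted p under 0.05. The 4 that did not were H2-DMb1 and H2-Oa with DESeq2 (Wald test, unadjusted p of 0.0505 and 0.0927) and H2-DMa and H2-Oa with the replicate block in limma (unadjusted p of 0.0540 and 0.0575). H2-Oa was not tested where at least 10 normalized counts were asked for in every heart, and DESeq2 gave it no adjusted p. The lowest adjusted p of a member with all hearts was 0.0902, for H2-Eb1 with DESeq2. No pairing by replicate number was seen. Deviations of hearts with the same number correlated at -0.02, -0.17 and -0.29 over 15513 genes, and those with different numbers at -0.24 to 0.31. So few correlations, between hearts that also differ in marker sums, cannot exclude a pairing. With the replicate block 6 members were lower at an unadjusted p under 0.05 and 0 after adjustment, and 641 genes had an unadjusted p under 0.05 against 848 without it.

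With 1 heart left out, 48 of 48 fold changes kept the lower level and 29 kept an unadjusted p under 0.05. The number of members under that threshold ran from 3 to 8, with 4 without control heart 2, 3 without control heart 3, 4 without miR-19 heart 1 and 3 without miR-19 heart 2. Over the same fits, between 612 and 3070 of all genes passed it in either direction, and the fit with 3070, without miR-19 heart 3, is the one with 8 members. The number with an adjusted p under 0.05 ran from 0 to 4, and was 4 without miR-19 heart 3. The median log2 fold change of the members ran from -0.61 to -0.44. Without miR-19 heart 3, 515 of all genes had an adjusted p under 0.05, against 0 with all hearts. In these fits 1 group has 2 hearts, and the cause of these moves was not tested. H2-Oa rests on 4 to 17 reads per heart, so its fold change is poorly determined. With 3 hearts per group, sequenced as bulk tissue, the level per cell was not measured.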

Other observations

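Markers of the cells that make up most of the ventricle were also read. Of 10 cardiomyocyte markers, 1, Nppa, was lower at an unadjusted p under 0.05 in limma and 0 were higher, with a median log2 fold change of 0.11. Of 8 fibroblast markers 0 passed in either direction, with a median of -0.05, and of 7 endothelial markers 0 passed, with a median of 0.00. The endothelial marker sum ran from 23581 to 30073 normalized counts in control hearts and from 25796 to 27275 in miR-19 hearts.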
